A study of Rattus norvegicus with 17 samples.

Results

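The 10 genes described here belong to a set of follicular helper T (Tfh) cell genes and were followed in CD4+ T cells of rats fed 3 amounts of vitamin D. They are Cxcr5, Bcl6, Pdcd1, Icos, Cd40lg, Sh2d1a, Btla, Tox2, Ascl2 and Pou2af1. Each was represented by the array row annotated to its symbol alone that had the highest mean, and all 10 were measured, among 14506 genes with a single symbol. All 10 also lay above the filter on low values, which kept 10879 genes for testing.

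The cells came from the inguinal nodes of female Dark Agouti rats, by flow cytometric sorting, and all rats had been immunized with myelin oligodendrocyte glycoprotein (MOG) 7 days earlier to induce experimental autoimmune encephalomyelitis, which models multiple sclerosis. The rats were age matched, with no age stated, and ate 1 of 3 diets. The deprived diet held 0 IU of vitamin D (n = 5 arrays), the regular diet 2 IU (n = 6) and the supplemented diet 10 IU (n = 6). Feeding began 5 weeks ahead of immunization and went on until the nodes were taken, and the sources used here do not say per how much feed the IU are counted. The series asked how vitamin D affects the transcriptome of CD4+ T cells. The sort was for CD4+ cells and not for Tfh cells, so each value is an average over all sorted cells. Fewer Tfh cells, less RNA of a gene per Tfh cell and a change in the other sorted cells cannot be told apart. A change in 1 of the 10 genes is therefore not a result about Tfh cells as such. The regular diet was the reference for both other diets, and supplemented arrays were also set against deprived arrays. These comparisons share their arrays and are not independent of each other.

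Tfh cells are the CD4+ T cells that enter B cell follicles and help B cells form germinal centres and switch antibody class. The transcription factor BCL6 directs the programme, ASCL2 and TOX2 act beside it, and the receptor CXCR5 guides the cells towards the follicle. Contact with B cells runs through ICOS, CD40 ligand and receptors that signal through the adaptor SAP (encoded by Sh2d1a), while PD-1 (Pdcd1) and BTLA are inhibitory receptors. Vitamin D acts through the vitamin D receptor, a nuclear receptor that binds DNA at pairs of a 6-base half-site.

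RefSeq promoter sequences on GRCr8, from 250 bases before to 50 bases after a listed start, were given for 7 of the 10 genes, and not for Cxcr5, Cd40lg and Pou2af1. The listed start can lie inside the annotated gene: for Icos, Btla and Ascl2, 0 bases of the window lay before the gene. The half-site forms AGGTCA and AGTTCA, together with GGGTCA and GGTTCA, were searched for on both strands. A match lay in 3 of the 7 promoters, those of Pdcd1, Sh2d1a and Btla, and in 44.4% of all 33469 promoters of that length, so a match is common in any such window. The match of Btla lay inside the annotated gene. The stretches before the annotated gene are printed for Pdcd1, the only listed gene whose mRNA passed a test between diets, and for Sh2d1a, the only one with more than 1 match (chr9:101879279-101879520, minus strand, and chrX:126238950-126239190, plus strand). Letters run 5′ to 3′ on the strand of the gene, and capitals mark a half-site on either strand.
Pdcd1: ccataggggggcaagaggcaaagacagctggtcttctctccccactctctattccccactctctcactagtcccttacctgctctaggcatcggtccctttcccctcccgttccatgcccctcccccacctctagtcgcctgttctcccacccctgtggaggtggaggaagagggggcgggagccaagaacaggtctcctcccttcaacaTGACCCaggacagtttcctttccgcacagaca
Sh2d1a: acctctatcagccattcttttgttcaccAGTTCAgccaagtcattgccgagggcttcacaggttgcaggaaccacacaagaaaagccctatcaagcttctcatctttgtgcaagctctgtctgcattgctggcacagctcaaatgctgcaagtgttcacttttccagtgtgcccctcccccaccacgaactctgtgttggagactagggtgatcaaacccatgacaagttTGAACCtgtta
The match before Pdcd1 starts 32 bases from the 3′ end of the printed stretch. A match is a description of these letters and not a binding site.

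Values are the authors' log2 expression values, on which a difference of 1 is a doubling, and levels were compared between diets within a gene and never between genes. Changes are differences of mean log2 values, tested with limma's moderated test and adjusted by Benjamini-Hochberg over all 10879 genes at a threshold of 0.05. The supplemented arrays stood apart from the others as a whole. The standard deviation (SD) of all log2 values on an array, called array spread here, ran from 1.91 to 1.97 on supplemented arrays, from 2.00 to 2.06 on regular arrays and from 2.03 to 2.07 on deprived arrays. Of all genes tested, 33.7% passed in supplemented against regular arrays, 47.2% in supplemented against deprived arrays and 1.67% in deprived against regular arrays. The moderated F test over the 3 diets called 45.3% of genes.

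Among the Tfh genes, Cd40lg was lower on the supplemented diet than on both other diets, and Pdcd1 was higher on the supplemented than on the deprived diet. Supplemented against regular arrays gave 1 gene that fell and 0 that rose, and 9 that did not pass, beside 22.9% of all genes called lower and 10.8% called higher. Supplemented against deprived arrays gave 1 that fell, 1 that rose and 8 that did not pass, beside 28.6% and 18.6% of all genes. Deprived against regular arrays gave 0 calls by limma, and 0 of the 10 genes had an unadjusted p below 0.05. The F test called 1 of the 10, Cd40lg. The median change of the 10 genes was -0.05 for supplemented minus regular, 0.02 for deprived minus regular and, between supplemented and deprived arrays, -0.09, each with a median of 0.00 over all genes tested. After quantile normalization the medians were 0.07 for supplemented minus regular and 0.04 for supplemented minus deprived, and after median centring they were -0.13 and -0.20, where centring itself moved the median of all genes to -0.08 and -0.10. Values that did not overlap between 2 diets were found for Cd40lg only, in both of its called comparisons, against 12.1% of all genes between supplemented and regular arrays, 24.1% between supplemented and deprived arrays and 5.53% between deprived and regular arrays, where 0 of the 10 genes did so.

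**Figure D1:**
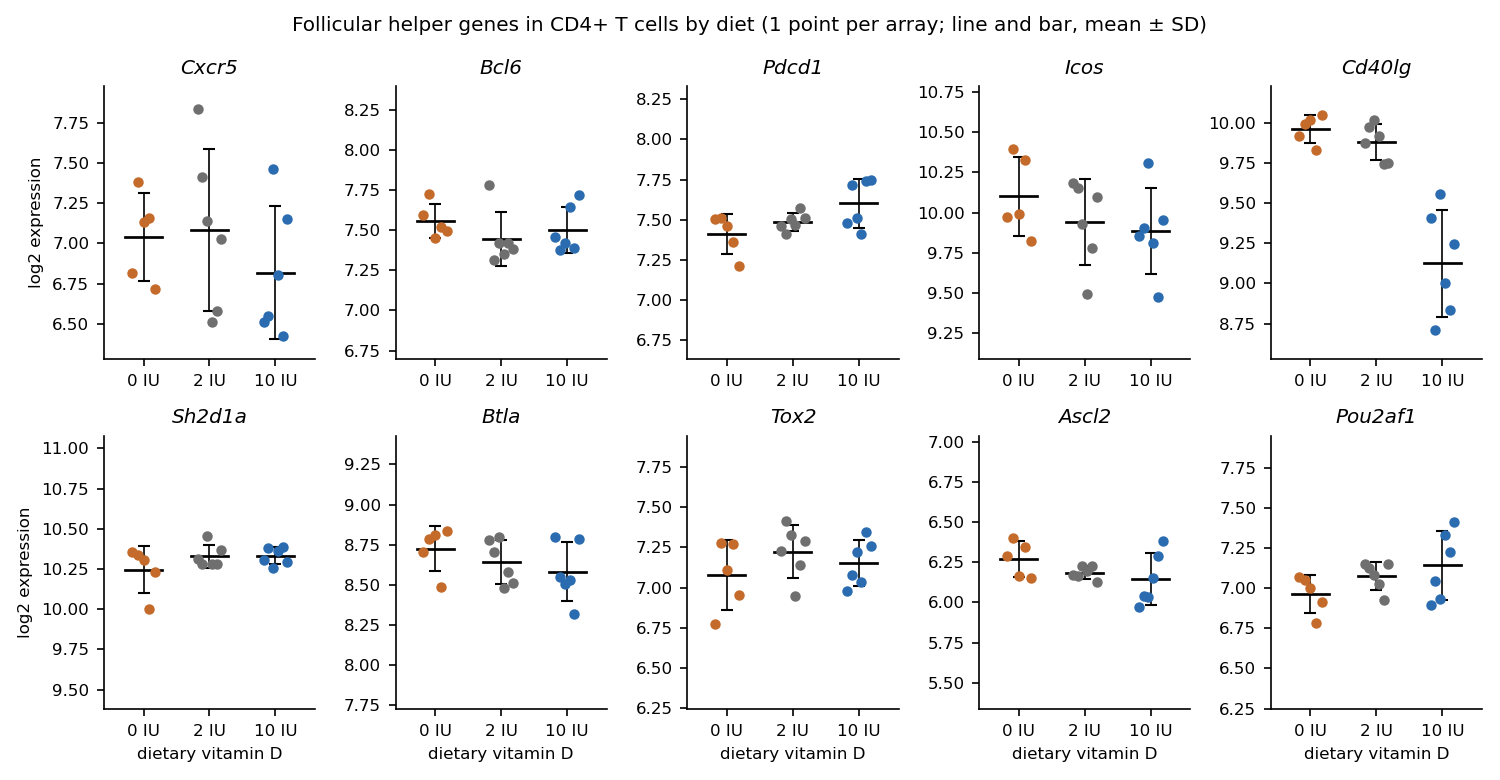
Log2 expression of the 10 Tfh genes, 1 panel per gene, by diet (0, 2 and 10 IU of vitamin D). Each point is an array and bars give the mean and SD (n = 5, 6 and 6). In the Cd40lg panel the 6 supplemented arrays lie between 8.71 and 9.56, below every other array, while the diets overlap in the other 9 panels.

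Cd40lg encodes CD40 ligand, the membrane protein through which helper T cells activate CD40 on B cells, dendritic cells and macrophages. In regular arrays it ranged from 9.74 to 10.02 with a median of 9.90. In the deprived arrays it was 9.92, 9.99, 10.01, 9.83 and 10.05. In supplemented arrays it ranged from 8.71 to 9.56 with a median of 9.12. All 6 supplemented arrays lay below all 11 others, and the regular and deprived arrays overlapped. The supplemented mean was 9.13 ± 0.33 (SD, n = 6), against 9.88 ± 0.11 (SD, n = 6) and 9.96 ± 0.09 (SD, n = 5).

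Cd40lg fell by 0.75 on the log2 scale in supplemented against regular arrays (SE 0.11, adjusted p = 2.38e-05 in limma, 95% interval -0.98 to -0.53), a level lower by 1.69-fold. It fell by 0.83 against deprived arrays (SE 0.11, adjusted p = 6.41e-06, interval -1.07 to -0.60), or 1.78-fold. Deprived minus regular was 0.08 (SE 0.11, adjusted p = 0.778), with an interval from -0.16 to 0.32. Of the 10879 genes, 109 fell further than Cd40lg against the regular diet and 159 against the deprived diet. Genes of like level moved the same way in many cases. Of the 936 genes with a mean within 0.5 of that of Cd40lg, 501 were called lower in supplemented than in regular arrays with a median change of -0.22, and 42 fell further than Cd40lg.

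Array spread differed between the same arrays. Supplemented replicates 2 and 5 had the lowest Cd40lg values, 8.71 and 8.83, and also the lowest array spread. Without those replicates the change against the regular diet was -0.58 (adjusted p = 0.000137 in limma), and against the deprived diet it was -0.66 (adjusted p = 2.40e-05). With array spread as a covariate the changes were -0.22 (SE 0.17, adjusted p = 0.666) and -0.14 (SE 0.21, adjusted p = 0.851), and neither was called. Array spread did not overlap between supplemented arrays and the others, so spread and diet cannot be told apart. After quantile normalization, which gives each array the same distribution, the change against the regular diet was -0.59 and still passed.

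**Figure D2:**
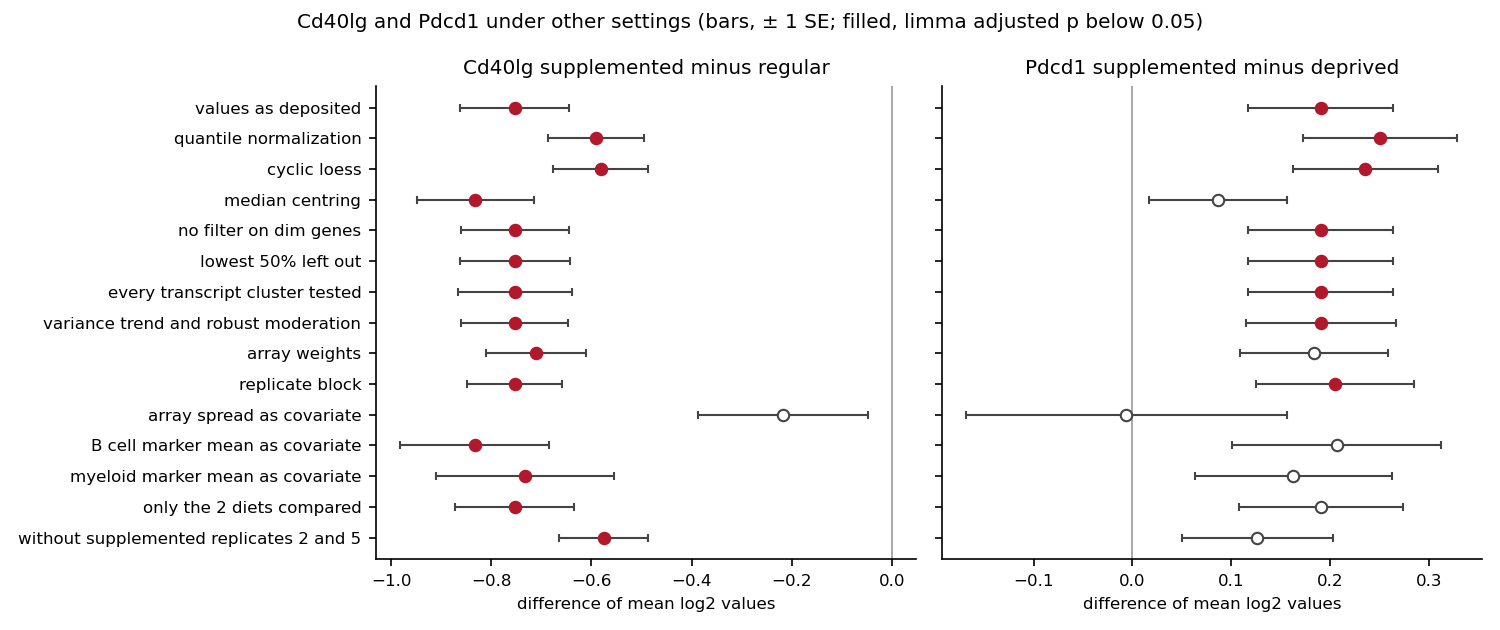
Difference of mean log2 values under each setting, 1 line per setting, for Cd40lg in supplemented minus regular arrays (left) and Pdcd1 in supplemented minus deprived arrays (right), with bars of 1 SE and filled points where limma's adjusted p passed. Cd40lg lies below 0 in all settings drawn and is not called with array spread as a covariate (-0.22), while Pdcd1 is open in 7 of them.

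Pdcd1 encodes PD-1, an inhibitory receptor that stands high on Tfh cells and on T cells stimulated for long. Deprived arrays gave 7.51, 7.51, 7.46, 7.36 and 7.21. Supplemented arrays ranged from 7.41 to 7.75 with a median of 7.62, and regular arrays from 7.41 to 7.57 with a median of 7.49. The deprived and supplemented arrays overlapped, and 5 of 6 supplemented arrays lay above the deprived mean. Pdcd1 rose by 0.19 in supplemented against deprived arrays (SE 0.07, adjusted p = 0.038 in limma, 95% interval 0.04 to 0.34). Its difference was 0.11 for supplemented minus regular (adjusted p = 0.207) and -0.08 for deprived minus regular (adjusted p = 0.648). The F test over the diets did not call it (adjusted p = 0.0915).

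The Pdcd1 call lay close to the threshold. It was lost without deprived replicate 5 (adjusted p = 0.0735) or 6 (0.129), and without supplemented replicate 2 (0.0812), 5 (0.0862) or 6 (0.0832). Median centring of the arrays gave a change of 0.09 (adjusted p = 0.344), and array weights gave 0.18 (adjusted p = 0.0502). The call was kept in 19 of 31 alternatives. Among these were quantile normalization, with a change of 0.25 (adjusted p = 0.0179), and cyclic loess, with 0.24 (adjusted p = 0.0175). With array spread as a covariate the change was -0.01 (adjusted p = 0.995).

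Btla, the other inhibitory receptor, binds the ligand HVEM (Tnfrsf14). Its means were 8.72 ± 0.14 (SD, n = 5) in deprived, 8.64 ± 0.14 (SD, n = 6) in regular and 8.58 ± 0.18 (SD, n = 6) in supplemented arrays, and the diets overlapped. No contrast passed, with -0.14 for supplemented minus deprived (adjusted p = 0.183). Its sign depended on the scaling: it was -0.25 (adjusted p = 0.0409) after median centring, 0.05 after quantile normalization (adjusted p = 0.642) or cyclic loess (adjusted p = 0.677), and 0.37 (adjusted p = 0.412) with array spread as a covariate.

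Icos encodes the costimulatory receptor that binds ICOS ligand on B cells and keeps Tfh cells in place. It was 10.10 ± 0.25 (SD, n = 5) in deprived, 9.94 ± 0.27 (SD, n = 6) in regular and 9.88 ± 0.27 (SD, n = 6) in supplemented arrays. The difference was -0.22 for supplemented minus deprived (SE 0.13, adjusted p = 0.181, 95% interval -0.50 to 0.06), 0.16 for deprived minus regular (adjusted p = 0.592) and -0.06 for supplemented minus regular (adjusted p = 0.750). None passed, and the arrays of each diet overlapped. The supplemented minus deprived difference turned to 0.03 after quantile normalization (adjusted p = 0.869) or cyclic loess (adjusted p = 0.893), and to 0.32 (adjusted p = 0.715) with array spread as a covariate.

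Cxcr5, the receptor for the follicular chemokine CXCL13, varied most of the 10 genes among arrays of 1 diet. Regular arrays ran from 6.51 to 7.83, supplemented arrays from 6.42 to 7.46 and deprived arrays from 6.72 to 7.38. Their medians were 7.08, 6.68 and 7.13. Supplemented minus regular was -0.27 (SE 0.20, adjusted p = 0.292) and its interval ran from -0.67 to 0.14. It was -0.12 (adjusted p = 0.656) without regular replicate 1, -0.10 (adjusted p = 0.775) without supplemented replicates 2 and 5, -0.12 (adjusted p = 0.691) with array weights and 0.58 (adjusted p = 0.541) with array spread as a covariate. Supplemented minus deprived was -0.22 (adjusted p = 0.374) and deprived minus regular was -0.04 (adjusted p = 0.945).

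Sh2d1a, the adaptor of the SLAM family receptors, ranged from 10.26 to 10.39 in supplemented and from 10.28 to 10.46 in regular arrays. Deprived arrays ran from 10.00 to 10.36. Supplemented minus regular was 0.00 (SE 0.06, adjusted p = 0.977, 95% interval -0.13 to 0.13), and supplemented minus deprived was 0.09 (adjusted p = 0.274). Its reading depended on the scaling of the arrays. After quantile normalization it was higher in supplemented arrays by 0.18 against regular (adjusted p = 0.033) and by 0.34 against deprived arrays (adjusted p = 0.000404). After median centring the same differences were -0.08 and -0.02 and did not pass.

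The 4 nuclear factors of the group showed no call. Bcl6, the repressor that defines the lineage, was 7.56 ± 0.11 (SD, n = 5), 7.44 ± 0.17 (SD, n = 6) and 7.50 ± 0.14 (SD, n = 6) in deprived, regular and supplemented arrays. All 5 deprived arrays lay above the regular mean, by 0.11 on average (SE 0.08, adjusted p = 0.536), and the 2 diets overlapped. One regular array, replicate 1, read 7.78, with the next at 7.42. Without it deprived minus regular was 0.18 (adjusted p = 0.215), which did not pass. Tox2, an HMG-box factor, was 7.08 ± 0.22, 7.22 ± 0.16 and 7.15 ± 0.14 in the same order (SD, n = 5, 6 and 6), with changes of -0.07 for supplemented minus regular, -0.15 for deprived minus regular and 0.08 between supplemented and deprived arrays, none of which passed.

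Ascl2, a basic helix-loop-helix factor that promotes Cxcr5 expression, was 6.27 ± 0.11, 6.19 ± 0.04 and 6.15 ± 0.16 in deprived, regular and supplemented arrays (SD, n = 5, 6 and 6). Supplemented minus deprived was -0.12 (SE 0.07, adjusted p = 0.158), which became -0.23 (adjusted p = 0.0148) after quantile normalization and -0.17 (adjusted p = 0.0462) without supplemented replicate 6. Pou2af1, a coactivator of octamer factors that is also high in B cells, was 6.96 ± 0.12, 7.08 ± 0.09 and 7.14 ± 0.21 in the same order (SD, n = 5, 6 and 6). Its supplemented minus deprived difference was 0.18 (adjusted p = 0.0944). That contrast passed without supplemented replicate 1 (0.23, adjusted p = 0.0341) or 3 (0.22, adjusted p = 0.041). Vdr, the gene of the vitamin D receptor and not one of the 10, differed by 0.14 (SE 0.07, adjusted p = 0.12) in supplemented against regular arrays and did not pass.

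**Figure D3:**
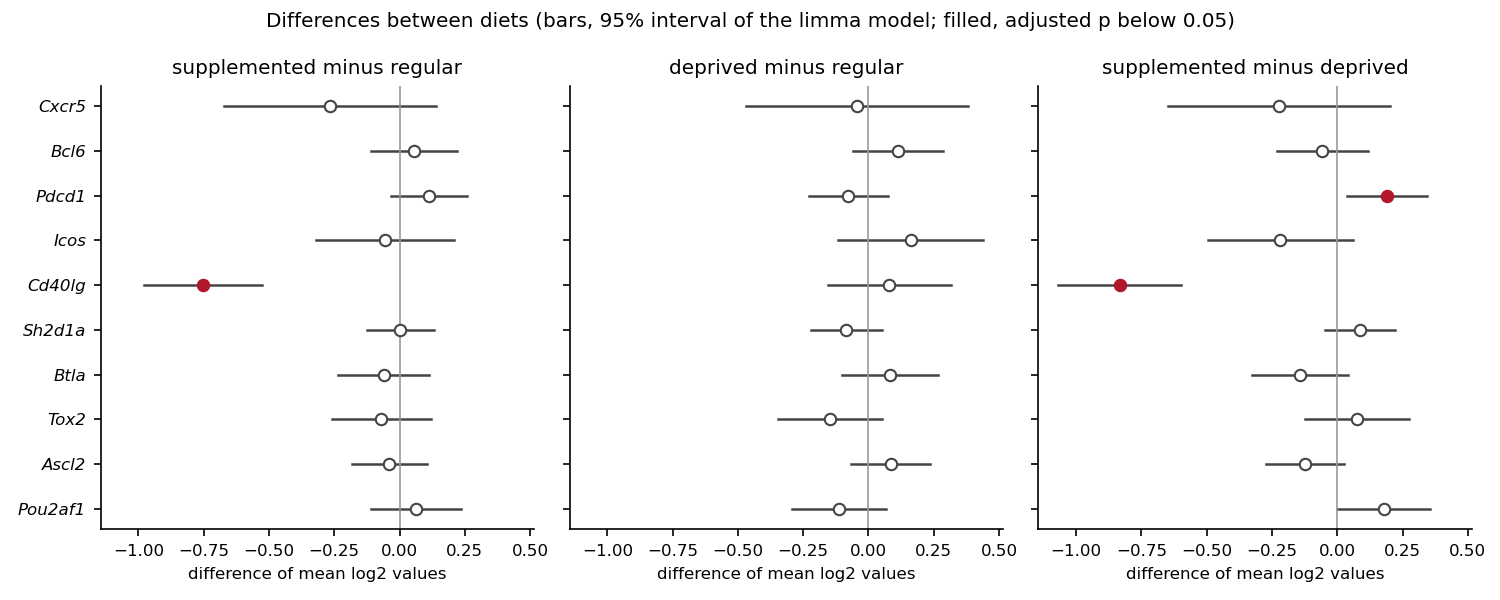
Difference of mean log2 values for each of the 10 Tfh genes in the 3 comparisons of diets, with 95% intervals from limma and filled points where the adjusted p passed. Intervals of Cd40lg lie wholly below 0 in both comparisons with the supplemented diet, that of Pdcd1 lies above 0 in supplemented minus deprived (0.04 to 0.34), and the other intervals reach or cross 0.

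Of 25 other factors, cytokines and receptors of Tfh cells on the list, 21 were measured and 20 tested. Supplemented against regular arrays gave 0 that rose, 4 that fell and 16 that did not pass (median -0.09), and against deprived arrays 0, 5 and 15 (median -0.07). Of all genes, 22.9% and 28.6% were called lower in these 2 comparisons, and 10.8% and 18.6% higher. Those that fell were Il6r, Stat3, Cxcr4 and Fyn in both comparisons, and Slamf1 against deprived arrays. The direction depended on the scaling: after quantile normalization 2 rose and 1 fell against regular arrays (median 0.01) and 4 rose and 3 fell against deprived arrays (median 0.07). After median centring 0 rose and 9 fell in each of these comparisons (medians -0.17 and -0.18). Stat3, which relays IL-6 and IL-21 signals towards Bcl6, fell by 0.42 (SE 0.10, adjusted p = 0.00262) against the regular diet, and Fyn, the kinase that acts with SAP, fell by 0.35 (SE 0.10, adjusted p = 0.00923). In deprived against regular arrays, 1 of the 20 rose and 0 fell, beside 1.67% of all genes called in either direction. That gene was Cxcr4, a chemokine receptor of germinal centre dark zones that is also broad in T cells, with a rise of 0.60 (SE 0.07, adjusted p = 0.000124). Il21, the cytokine with which Tfh cells drive B cells, lay below the filter, with means of 5.19, 5.25 and 5.30 in deprived, regular and supplemented arrays.

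A further list holds genes that oppose the Tfh programme or belong to alternatives to it. Of 18 listed, 16 were tested, and 1 rose, 6 fell and 9 did not pass in supplemented against regular arrays (median -0.08). Against deprived arrays 1 rose, 5 fell and 10 did not pass (median -0.18). Of all genes, 10.8% were called higher and 22.9% lower against regular arrays, and 18.6% and 28.6% against deprived arrays. The 1 that rose in both was Foxp1, and Klf2, Id2, Stat5b and Ctla4 fell in both. After quantile normalization 4 rose and 5 fell against regular arrays (median -0.07), and 3 rose and 4 fell against deprived arrays (median 0.00). After median centring 0 rose, so that Foxp1 was no longer called, and 7 and 9 fell (medians -0.16 and -0.28). Against the regular diet Id2, an inhibitor of E proteins, fell by 0.71 (SE 0.09, adjusted p = 5.21e-06). Stat5b, which relays IL-2 signals, fell by 0.45 (SE 0.08, adjusted p = 0.000167), and S1pr1, the receptor for egress from the node, fell by 0.45 (SE 0.09, adjusted p = 0.000521). In deprived against regular arrays 1 of the 16 rose, Il7r, by 0.24 (SE 0.06, adjusted p = 0.0491), beside 1.67% of all genes called in either direction.

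Of 9 ligands and receptors through which B cells meet Tfh cells, 5 were tested. Of all genes, 18.6% were called higher in supplemented than in deprived arrays, and 10.8% higher than in regular arrays. In supplemented against deprived arrays 3 rose: Pdcd1lg2, a ligand of PD-1, by 0.29 (adjusted p = 0.00378), Tnfrsf14 by 0.31 (adjusted p = 0.0181) and Cd40, the receptor for CD40 ligand, by 0.21 (adjusted p = 0.0448). After quantile normalization or cyclic loess 2 of the 5 rose, and after median centring 0. On the values as deposited, 0 of the 5 passed by limma in supplemented against regular arrays, where 2 rose after quantile normalization or cyclic loess and 0 after median centring. In that comparison Cd80, which activates CD28, came nearest at 0.28 (adjusted p = 0.0621).

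Markers of other cells also differed between diets. Of all genes, 10.8% were called higher and 22.9% lower in supplemented against regular arrays, and 18.6% and 28.6% against deprived arrays. Of 9 B cell markers tested, 7 rose and 0 fell in supplemented against regular arrays, among them Cr2 by 0.66 (adjusted p = 0.000196), and 6 rose and 1, Cd22, fell against deprived arrays. Cr2 passed the filter (lowest mean kept 5.32) only through the supplemented arrays. Its means were 5.19, 5.24 and 5.90 in deprived, regular and supplemented arrays. Cd22 went the other way from the 7 that rose, with means of 7.66, 7.57 and 7.07 in the same order. Its fall against regular arrays did not pass. Of the 9 markers, 3 rose and 0 fell against regular arrays after quantile normalization, and 2 rose and 1 fell after median centring. The mean of the 9, Cd22 included, ran from 6.12 to 6.50 in supplemented, 5.93 to 6.26 in regular and 5.99 to 6.17 in deprived arrays. The defining marker Ms4a1 lay below the filter, with means of 4.99, 5.01 and 5.33 in deprived, regular and supplemented arrays, and Cd79a and Pax5 were not matched. Of 12 myeloid markers tested, 5 (Tyrobp, Cybb, Spi1, Mrc1 and C1qb) rose and 0 fell in supplemented against regular arrays, with 1 that rose after quantile normalization. Mrc1 also passed the filter only through the supplemented arrays, with means of 5.30, 5.21 and 5.49 in deprived, regular and supplemented arrays. The mean of the 12 ran from 6.30 to 6.42 in supplemented, 6.07 to 6.24 in regular and 6.14 to 6.34 in deprived arrays. Of 7 CD8 and natural killer markers 1 rose (Ncr1) and 1 fell (Cd8b), and of 4 plasma cell markers 1 rose (Sdc1) and 0 fell.

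All 12 CD4 T cell markers on the list passed the filter, which left out only the lowest 25% of genes. So did 9 of 11 measured B cell markers and 12 of 17 measured myeloid markers, so passing it does not check the labelled cell type. In supplemented against regular arrays 5 of them (Cd4, Cd3e, Cd3d, Cd247 and Lck) fell and 0 rose, and Cd4 itself fell by 0.59 (SE 0.11, adjusted p = 0.000301) and Cd3e by 0.29 (adjusted p = 0.00604). Against deprived arrays 7 fell. Of all genes, 22.9% were called lower against regular arrays and 28.6% against deprived arrays. After quantile normalization 4 fell and 0 rose against regular arrays, and 3 fell and 3 rose against deprived arrays. After median centring 8 and 9 fell and 0 rose. The mean of the 12 ran from 9.92 to 10.16 in supplemented, 10.19 to 10.38 in regular and 10.18 to 10.37 in deprived arrays. No fit had the mean of these 12 CD4 T cell markers as a covariate. Covariate fits were run with the B cell and the myeloid marker mean only. Beyond those fits and the relations across arrays given below, the part of all these markers in the Tfh gene results was not tested.

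With the B cell marker mean as a covariate, the Cd40lg change in supplemented against regular arrays was -0.83 (adjusted p = 0.000312 in limma), and with the myeloid mean it was -0.73 (adjusted p = 0.0115). With the B cell covariate Cxcr5 also passed, at -0.89 (SE 0.19, adjusted p = 0.00122), and at -0.92 (adjusted p = 0.00141) against deprived arrays, where Icos passed at -0.58 (SE 0.16, adjusted p = 0.0068). The B cell marker mean was itself higher in supplemented arrays (6.31, against 6.07 in regular and 6.04 in deprived arrays), so these fits do not fully separate it from diet. With array spread as the covariate, Cxcr5 in supplemented minus regular arrays was 0.58 and did not pass. The Pdcd1 change against deprived arrays was 0.21 (adjusted p = 0.123) with the B cell covariate and 0.16 (adjusted p = 0.209) with the myeloid one, and did not pass.

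Within diets, Cxcr5 and Icos varied together. Over the 17 arrays, each centred on the mean of its diet, Pearson's r was 0.84 (permutation p = 5.0e-05, adjusted p = 0.00225 over 45 pairs of the 10 genes) and Spearman's rho was 0.88 (permutation p = 1.0e-05, the smallest that 100000 permutations can give, adjusted p = 0.00045). Without the 2 arrays farthest from the median r was 0.80, and it was 0.87 within the regular and 0.84 within the supplemented diet. It was the only 1 of the 45 pairs that passed, and 30 of the 45 had a positive r. Both values of a point come from the same array and so share its cells and its normalization. Against the B cell marker mean, r was 0.75 for Cxcr5 (permutation p = 0.00321, adjusted p = 0.0642 over 40 relations; Spearman's rho 0.73, adjusted p = 0.0744; r without 2 arrays 0.75) and 0.62 for Icos (adjusted p = 0.119; rho 0.58, adjusted p = 0.155; r without 2 arrays 0.64). None of the 40 relations of the 10 genes to array spread or the 3 marker means passed. Cd40lg against array spread had r of 0.68 (permutation p = 0.012, adjusted p = 0.119; rho 0.62, adjusted p = 0.155; r without 2 arrays 0.72).

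**Figure D4:**
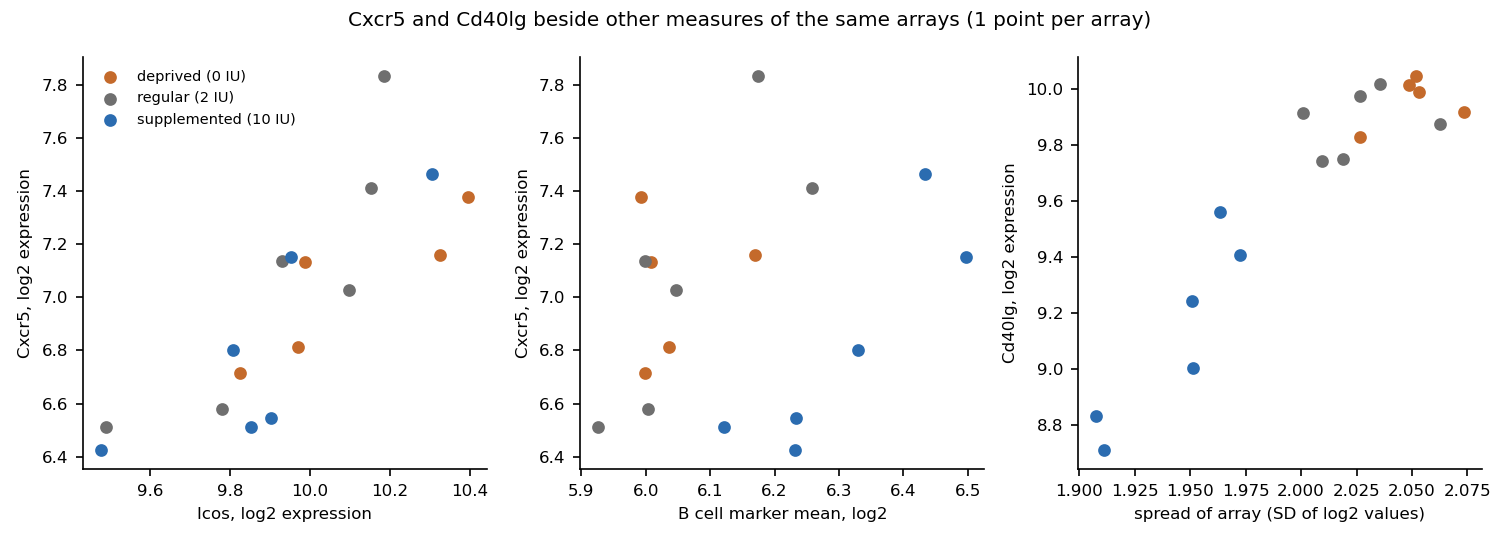
Log2 expression on each of the 17 arrays, coloured by diet, of Cxcr5 against Icos (left), Cxcr5 against the mean of the 9 B cell markers (middle) and Cd40lg against array spread (right), uncentred. Cxcr5 and Icos rise together in each diet, and in the right panel the supplemented arrays lie apart at the lower left.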

How the data were processed

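RNA of 17 samples was measured on Affymetrix whole-transcript arrays, 1 array per sample. The authors deposited log2 values, for which the submitters' processing notes name RMA and Partek 6.0. The range of the values gave the log base. The genome build, the probe file and any batch were not given in the sources used here. Of 29214 transcript clusters, 15310 had 1 gene symbol, and names were updated through RefSeq (GRCr8). Each of 14506 genes kept its cluster of highest mean, and the lowest 25% of genes were left out. The 3 diets shared 1 limma model (version 3.58.1, in R 4.3.3, with 14 residual degrees of freedom), and every adjusted p of a diet contrast comes from it or from a named alternative. The Benjamini-Hochberg adjustment was over 10879 genes. In alternatives that changed the filter or tested every cluster, it was over the genes or clusters tested there. Only the main limma fit was tested on simulated data, into which no difference in array spread between diets was put. The alternatives, the relations across arrays and the search for half-sites were not tested in this way. The labels call the replicates biological but name no animals, and the p-values measure only the spread between these samples. Relations across arrays used 100000 two-sided permutations within diets. No 2 arrays were identical. Their number limits the precision.

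The 10 genes, the other lists and the rules were chosen with earlier results of these data known. Named genes are the 10, Vdr, Cd4 and Cd3e, and, for each list and contrast, up to 3 genes of smallest p. Il6r, Foxp1, Klf2, Ctla4, Cybb, C1qb, Cd22 and Cd247 were named after their values were seen, as were Il21 and Ms4a1. Alternatives were other normalizations, filters, weights, covariates, the replicate block, and leaving out arrays.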

Additional observations from a re-analysis of the deposited data

Results flagged for a closer look

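In Bcl6, the regular array of replicate 1 lay far from the other 5 arrays of its diet, at a log2 value of 7.78 with the nearest at 7.42, a gap of 0.773 of the range of the group. The gap was looked for in 30 groups (10 genes in 3 diets), and chance alone gives about 1 such group in 20.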

How the results depend on the processing

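Of 30 differences between diets (10 genes, 3 comparisons), 19 kept their side of the threshold in all alternatives run (31, or 30 for Ascl2, which the stricter filter left out). Of those 19, 9 also kept their sign throughout and 10 changed sign in at least 1 alternative. In supplemented against regular arrays, where 1 Tfh gene was called, 2 were called after quantile normalization, cyclic loess (Cd40lg and Sh2d1a in both) or with the B cell covariate (Cxcr5 and Cd40lg), and 0 with array spread as a covariate. Leaving out 1 array gave 1 in each case. Against deprived arrays, where 2 were called, 4 were called after quantile normalization or cyclic loess, and 3 after median centring (Cd40lg, Btla and Ascl2). With the B cell covariate Cxcr5, Icos and Cd40lg were called and Pdcd1 was not. With array weights, the myeloid covariate, only the 2 diets compared or without supplemented replicates 2 and 5, 1 was called, and 0 with array spread. Leaving out 1 array gave 1 to 3. The F test called 4, 4, 2 (median centring), 3 (B cell covariate) and 0 (array spread) in place of 1, and 1 to 2 with 1 array left out. In deprived against regular arrays it was 0 in all 31. The Pdcd1 change against deprived arrays turned to -0.00609 with array spread as a covariate. The causes were not tested.

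Over all genes, the 3661 calls of supplemented against regular became 6755 with every cluster tested, 0 with array spread, 1421 with the myeloid covariate and 2171 without supplemented replicates 2 and 5 (2936 to 4035 with 1 array left out). Counts with every cluster tested come from the 29214 clusters after the filter and not from the 10879 genes. They are out of a larger total, so a larger count there is not a larger share. The 182 of deprived against regular became 40 (quantile), 84 (cyclic loess), 311 (every cluster), 889 (array weights), 68 (array spread), 466 (only the 2 diets) and 301 (without supplemented replicates 2 and 5), and 33 to 244 with 1 array left out, lowest without deprived replicate 6. The 5132 of supplemented against deprived became 9756 (every cluster) and 0 (array spread), with 4451 to 5444 with 1 array left out. The 4927 of the F test became 9370 (every cluster), 72 (array spread) and 2930 (myeloid covariate), with 4165 to 5191 with 1 array left out. Median centring left 8.54% of calls higher in supplemented against regular arrays, from 32.0%, and 12.7% from 39.3% against deprived arrays; in deprived against regular arrays 89.0% became 65.0% after quantile normalization and 66.7% after cyclic loess.

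Same-numbered arrays of different diets deviated together about as much as differently numbered ones. Their r ran from -0.21 to 0.19 over 16 pairs (4 above 0.1), against -0.25 to 0.26 over 80 pairs (21 above 0.1). A weak link between samples of the same number would not be seen in this way. With the replicate block 3625, 145, 5332 and 5032 genes were called in the 3 comparisons and the F test, and no call of the 10 genes changed.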
